A study of Mus musculus with 2 samples.

Results

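The clustered protocadherins are a family of cadherin-like adhesion molecules encoded by 3 tandem gene clusters, alpha, beta and gamma, on mouse chromosome 18. Their members were taken as every feature whose symbol is Pcdha, Pcdhac, Pcdhb, Pcdhga, Pcdhgb or Pcdhgc followed by a number, which gave 57 of the 32285 features counted. They comprised 22 beta genes, 14 alpha genes and 21 gamma genes (12 gamma A, 6 gamma B and 3 gamma C). The alpha genes Pcdhac1 and Pcdhac2 and the 3 gamma C genes are known together as the 5 C-type genes. Within the family, members were taken by symbol alone. The family itself was chosen with earlier results of these data known.

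Each variable exon of these clusters has its own promoter, and a neuron switches on a small and largely random set of them, with CTCF and cohesin bringing a chosen promoter to a distant enhancer. The proteins bind in trans only to the same isoforms, so the set on a cell surface acts as an identity tag. In the retina, gamma protocadherins let the dendrites of a starburst amacrine cell avoid each other, and they are needed for the survival of many inner retinal neurons. Mettl14 works with the enzyme Mettl3 to methylate adenosines of messenger RNA (N6-methyladenosine, m6A), often in long exons and near stop codons, and the beta genes are long and intronless.

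Dissociated retinal cells of mice at postnatal day 7 were profiled by droplet single-cell RNA sequencing with a 3′ kit that counts unique molecular identifiers (UMIs). The Mettl14-cKO library came from Mettl14 fl/fl;Chx10-Egfp/Cre mice, in which a Chx10 transgene expresses Cre in retinal progenitors, and the control library from age-matched mice labelled Mettl14 fl/fl or fl/wt. With 1 library per genotype no test was possible. All intervals are exact 95% intervals that cover counting error only, so differences between animals or between preparations cannot be told apart from differences of genotype. Intervals of levels and ratios treat each UMI as independent. In most classes, beta UMIs of 1 cell shared a gene more often than the gene proportions give. These intervals may therefore be too narrow. The labels do not say how many retinas were pooled, and cells that do not descend from retinal progenitors, such as microglia, should keep the gene.

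Over barcodes with at least 1000 UMIs, the Mettl14-cKO library held 13502 cells and 58511730 UMIs (median 3212 per cell), and the control library 11426 cells and 54544552 UMIs (median 3487). Mettl14 stood at 14.5 counts per 1000000 UMIs (CPM; 13.5 to 15.5) in the Mettl14-cKO library and at 27.1 CPM (25.7 to 28.5) in the control library. The floxed exons are not named in the labels, and a 3′ count may not read the deleted part, so this value may not measure the deletion. Of all barcodes, 57 occurred in both libraries. Mitochondrial genes took 2.99% of UMIs in the Mettl14-cKO library and 3.91% in the control library. Ribosomal protein genes took 12.3% in the Mettl14-cKO library and 10.1% in the control library. Cells were assigned to classes by counting detected marker genes, and the classes differed in their shares: rods made up 20.7% of Mettl14-cKO cells and 34.8% of control cells. Cells that passed no gate made up 19.3% of Mettl14-cKO cells and 8.95% of control cells.

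The 57 members lie on the plus strand of chromosome 18 between 36930184 and 37841873 (GRCm38, the build also called mm10; GENCODE M21). The beta genes occupy a stretch of 260 kb from 37264938 to 37524479, between the alpha and the gamma cluster, and each has 1 exon of 2588 to 8695 bases. This structure sets what a 3′ count can see. Over the last 500 bases of the transcript, every 90-base window of every alpha and every gamma gene was shared with other genes of its cluster, because alpha transcripts splice to 1 common set of 3′ exons and gamma transcripts to another. A read there matches several genes, and how such reads and intronic reads were treated in the deposited counts is not given in the sources used here. What part of a promoter's output an alpha or gamma count measures is therefore uncertain. Among the beta genes 21 of 22 shared no such window. The exception was Pcdhb21 (37513621 to 37518325), whose end overlaps the start of Pcdhb22 (37517871 to 37524479) by 455 bases and which shared 89.1% of its windows, so its count is uncertain.

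Summed over all cells, the beta genes gave 9761 UMIs in the Mettl14-cKO library and 6817 UMIs in the control library. This is 167 CPM (164 to 170) in Mettl14-cKO cells and 125 CPM (122 to 128) in control cells, a ratio of 1.33 (1.29 to 1.38). Photoreceptors, which hold little beta protocadherin RNA, were a larger share of the control library. With both libraries weighted to the control mix of classes, the summed level was 157 CPM in Mettl14-cKO cells and 125 CPM in control cells, a ratio of 1.26.

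The difference was unequal among the beta genes. A 3′ UMI stands for 1 transcript end whatever the length of the transcript, so levels in CPM are compared between these genes without a length correction. This holds only where the gene model reaches the end of the transcript, which was not tested. Differences in level between genes may therefore partly reflect their annotation. A gene was called when it had at least 30 UMIs over both libraries, a log2 ratio at least 0.32 from 0, and levels whose Poisson intervals did not overlap. Of the 21 beta genes with enough UMIs, 10 were called higher in the Mettl14-cKO library and 0 lower. The same rule called 19.5% of all 16164 genes tested higher and 18.6% lower, against 47.6% of the beta genes called higher. The median log2 ratio was 0.35 over the 21 beta genes and -0.02 over all genes tested. Ratios were above 1 for 16 of the 21 and below 1 for 5.

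**Figure D1:**
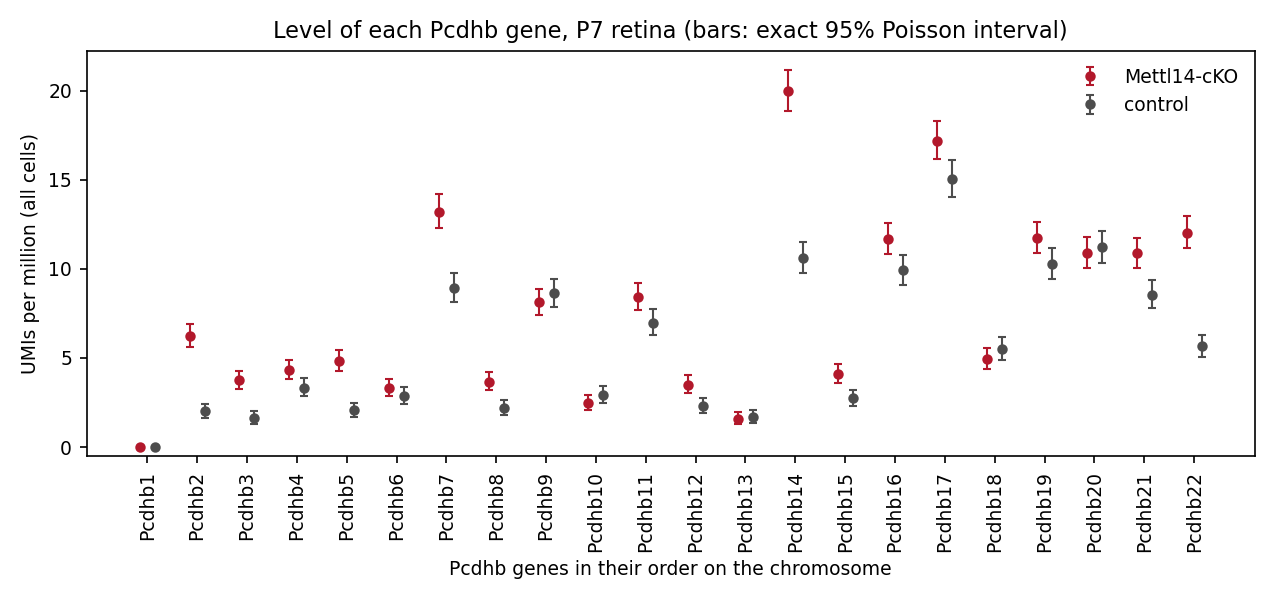
CPM of each Pcdhb gene (y axis) in the order of the genes on the chromosome (x axis), summed over all cells, for the Mettl14-cKO library (red) and the control library (grey); bars are exact 95% Poisson intervals. Pcdhb14 is the highest gene of the Mettl14-cKO library at 20.0 CPM, and Pcdhb17 that of the control library at 15.02 CPM.

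Pcdhb2, the second gene of the cluster, showed the widest separation. It gave 364 UMIs in the Mettl14-cKO library and 109 in the control library, or 6.22 CPM (5.60 to 6.89) in Mettl14-cKO cells and 1.998 CPM (1.64 to 2.41) in control cells, a ratio of 3.11 (2.51 to 3.89). In the control library it was among the least abundant beta genes, and in the Mettl14-cKO library it stood above its neighbours Pcdhb3 to Pcdhb6.

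Pcdhb3 and Pcdhb5, also near the start of the cluster, were both more than 2-fold higher. Pcdhb5 stood at 4.84 CPM in Mettl14-cKO cells and 2.05 CPM in control cells, a ratio of 2.36 (1.89 to 2.96). Pcdhb3 stood at 3.74 CPM in Mettl14-cKO cells and 1.63 CPM in control cells, a ratio of 2.29 (1.78 to 2.97). Pcdhb4 and Pcdhb6, which lie beside them, were not called: Pcdhb4 had a ratio of 1.29 with overlapping levels, and Pcdhb6 a ratio of 1.17.

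Pcdhb22, the last gene of the cluster, formed the other group of clear difference together with Pcdhb14. It gave 703 UMIs in the Mettl14-cKO library and 308 in the control library, or 12.01 CPM in Mettl14-cKO cells and 5.65 CPM in control cells, a ratio of 2.13 (1.86 to 2.44). Pcdhb14 gave 1170 UMIs in the Mettl14-cKO library and 578 in the control library, or 20.0 CPM in Mettl14-cKO cells and 10.6 CPM in control cells, a ratio of 1.89 (1.71 to 2.09). It was the most abundant beta gene of the Mettl14-cKO library, with 11.99% of all beta UMIs, and took 8.48% of those of the control library.

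The other genes called higher differed less. Pcdhb8 stood at 3.67 CPM in Mettl14-cKO cells and 2.20 CPM in control cells (ratio 1.67, 1.33 to 2.11), and Pcdhb12 at 3.50 CPM in Mettl14-cKO cells and 2.31 CPM in control cells (1.52). Pcdhb15 stood at 4.10 CPM in Mettl14-cKO cells and 2.75 CPM in control cells (1.49). Pcdhb7, an abundant member, stood at 13.2 CPM in Mettl14-cKO cells and 8.91 CPM in control cells (1.48, 1.32 to 1.66). Pcdhb21, whose count is uncertain, stood at 10.9 CPM in Mettl14-cKO cells and 8.54 CPM in control cells (1.27). Weighted to the control mix of classes, the ratio of Pcdhb21 was 1.18, below the limit of the call, while the other 9 genes stayed at 1.35 or more.

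The remaining beta genes were not called, and several were at nearly the same level in both libraries. Pcdhb17, the most abundant beta gene of the control library, stood at 17.2 CPM in Mettl14-cKO cells and 15.02 CPM in control cells, a ratio of 1.15 (1.04 to 1.26). Pcdhb20 stood at 10.9 CPM in Mettl14-cKO cells and 11.2 CPM in control cells (0.972; 0.868 to 1.09). Ratios for the others were 1.20 for Pcdhb11, 1.18 for Pcdhb16, 1.14 for Pcdhb19, 0.942 for Pcdhb13, 0.940 for Pcdhb9, 0.898 for Pcdhb18 and 0.845 for Pcdhb10. The intervals of Pcdhb6, Pcdhb9, Pcdhb10, Pcdhb13, Pcdhb18 and Pcdhb20 include 1. Weighted to the control mix, Pcdhb10 reached 0.771. Pcdhb1, the first gene of the cluster, had 0 UMIs in both libraries, which allows a level of up to 0.0513 CPM in the Mettl14-cKO library and 0.0550 CPM in the control library, taking 3 counts as the limit of a count of 0. These bounds assume that the gene model of Pcdhb1, the shortest of the cluster at 2588 bases, reaches the transcript end.

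Among the 21 genes, the log2 ratio was on balance higher toward the start of the cluster, with a Pearson correlation with the start coordinate of -0.46 (Spearman -0.38). Pcdhb14 and Pcdhb22 stand outside this pattern. The correlation with the control level was -0.38, and that with transcript length 0.06. The control level is also the denominator of the ratio, so counting error alone makes the former correlation more negative. It cannot be read as a property of the genes. GGACT, a frequent form of the site at which m6A is placed, occurred at a median of 1.24 per kb of the 22 beta transcripts (0.538 to 2.16), read on the transcript, against 1.01 per kb over 21630 coding genes, and 15 of the 22 lay above that median. Its density did not follow the ratio among the 21 genes (Pearson -0.07). These correlations are descriptions over genes of the same 2 libraries, and the genes are not independent replicates.

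The beta genes could be set beside the other coding genes made of a single exon. Of 406 such genes with enough UMIs, 152 (37.4%) were called higher and 62 (15.3%) lower, with a median log2 ratio of 0.23. Of the 190 with a transcript of 2000 bases or more, 80 (42.1%) were called higher and 24 (12.6%) lower, with a median of 0.29. The beta share of 47.6% and median of 0.35 thus stood above the share for all genes, and near those of the long single-exon genes. The UMI counts of these groups were not matched.

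The level of beta protocadherin RNA differed more between cell classes than between the libraries. Starburst amacrine cells, the cholinergic neurons in which protocadherin-based self-avoidance is best known, had the highest summed level in both libraries, at 388 CPM (327 to 457; 87 cells) in Mettl14-cKO cells and 342 CPM (285 to 407; 63 cells) in control cells. In Mettl14-cKO cells bipolar cells (247 CPM) and other amacrine cells (238 CPM) came next and had overlapping intervals, followed by neurogenic cells (159), Müller glia (141) and ganglion cells (139), which also overlapped. In control cells the amacrine level (222 CPM) was above the bipolar level (191 CPM), and ganglion cells (168 CPM), Müller glia (115 CPM) and neurogenic cells (99.9 CPM) followed, with ganglion cells overlapping bipolar cells and neurogenic cells overlapping Müller glia. Cones and rods were lowest of the 8 classes with at least 50 cells per library: cones had 94.6 CPM in Mettl14-cKO cells and 70.9 CPM in control cells, and rods had 96.7 CPM in Mettl14-cKO cells and 62.0 CPM in control cells. In microglia, which are not neural and gave 6 UMIs in the Mettl14-cKO library and 1 UMI in the control library, the level was 12.2 CPM in Mettl14-cKO cells and 5.54 CPM in control cells.

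**Figure D2:**
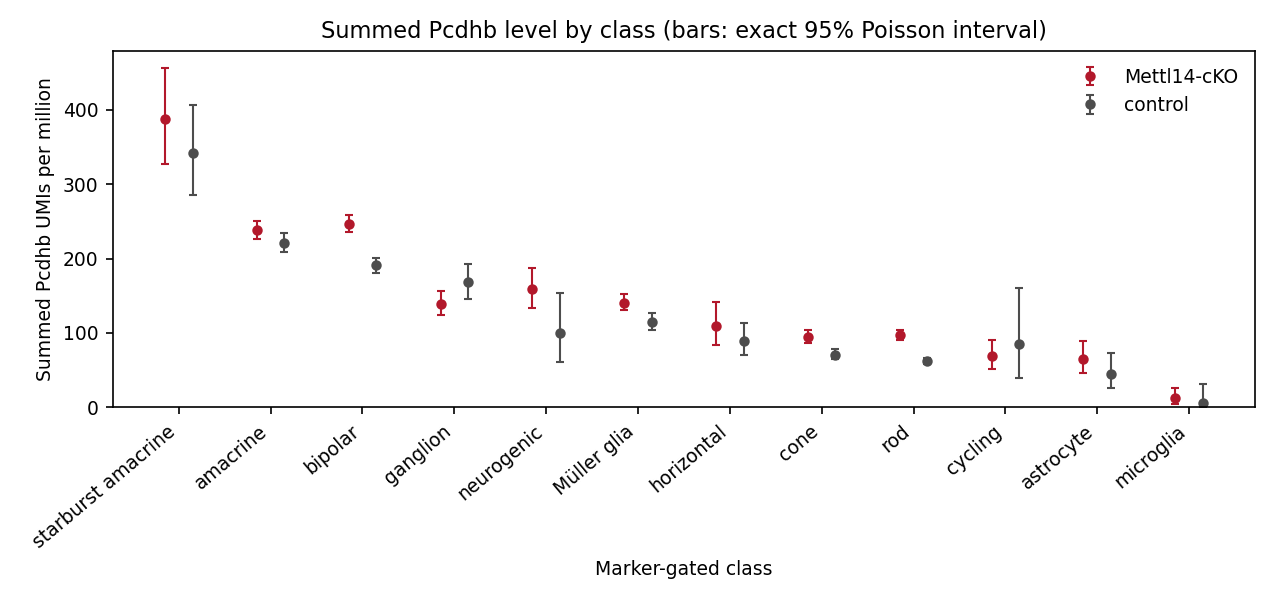
Summed Pcdhb CPM (y axis) in each marker-gated class (x axis) for the Mettl14-cKO library (red) and the control library (grey); bars are exact 95% Poisson intervals. Starburst amacrine cells are highest in both libraries (388 CPM in Mettl14-cKO and 342 CPM in control cells), microglia lowest (12.2 CPM in Mettl14-cKO and 5.54 CPM in control cells), and ganglion cells lie lower in the Mettl14-cKO library (139 CPM in Mettl14-cKO and 168 CPM in control cells). Horizontal, cycling and astrocyte cells and microglia have under 50 cells in at least 1 library.

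The ratio between the libraries also varied by class. It was 1.56 (1.42 to 1.72) in rods, from 842 beta UMIs in 2792 Mettl14-cKO rods and 813 beta UMIs in 3975 control rods. It was 1.33 (1.17 to 1.52) in cones, 1.29 (1.20 to 1.39) in bipolar cells and 1.22 (1.08 to 1.39) in Müller glia. Intervals included 1 in amacrine cells (1.08; 0.996 to 1.16), starburst amacrine cells (1.13; 0.887 to 1.45) and neurogenic cells (1.59; 0.994 to 2.69, from 143 UMIs in Mettl14-cKO cells and 20 UMIs in control cells). In neurogenic cells the ratio was 2.33 (1.31 to 4.51) with 1 more marker required for the gate and 1.69 (1.04 to 2.88) after the Scrublet filter. Ganglion cells went the other way: 302 UMIs in 221 Mettl14-cKO cells and 201 UMIs in 114 control cells gave a ratio of 0.829 (0.691 to 0.996). The difference in ratio between classes was not tested.

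The gates themselves read genes that differed between the libraries. The 12 bipolar markers summed to 3202 CPM in bipolar-gated Mettl14-cKO cells and 6006 CPM in bipolar-gated control cells, and the 11 Müller glia markers to 11594 CPM in Mettl14-cKO cells and 21475 CPM in control cells. All of these markers were detected at 2-fold or more over the other classes in both libraries. The summed rod markers stood at 29711 CPM in rod-gated Mettl14-cKO cells and 37423 CPM in rod-gated control cells. The part of these differences in the class results was not tested. Rod markers were also found outside the rod gate, at 5377 CPM in the other Mettl14-cKO classes and 8868 CPM in the other control classes.

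In rods, 5 of 15 beta genes tested were called higher and 0 lower, against 16.5% of all genes higher and 17.8% lower. The highest ratios were those of Pcdhb8 (22 UMIs in Mettl14-cKO and 11 UMIs in control cells; 3.01, 1.40 to 6.88), Pcdhb22 (69 UMIs in Mettl14-cKO and 43 UMIs in control cells; 2.42) and Pcdhb9 (30 UMIs in Mettl14-cKO and 19 UMIs in control cells; 2.38), and Pcdhb14 (1.88) and Pcdhb16 (1.81) were also called. The lowest were Pcdhb19 (0.767), Pcdhb18 (0.948) and Pcdhb4 (1.29). Pcdhb19 was the most abundant beta gene of control rods, with 13.0% of their beta UMIs, and Pcdhb14 that of Mettl14-cKO rods, with 13.2%.

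In cones, 2 of 10 were called higher and 0 lower, against 12% higher and 13.8% lower of all genes. They were Pcdhb22 (9.22 CPM in Mettl14-cKO cells and 3.72 CPM in control cells; ratio 2.48, 1.47 to 4.29) and Pcdhb14 (14.7 CPM in Mettl14-cKO cells and 6.47 CPM in control cells; 2.28, 1.53 to 3.44). Pcdhb21 had a ratio of 1.80 without a call. The lowest ratios were Pcdhb18 at 0.844, Pcdhb20 at 0.893 and Pcdhb17 at 0.902, all with intervals that include 1.

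In bipolar cells, where all 21 genes could be tested, 4 were called higher and 0 lower, against 15.9% and 16.7% of all genes, so the 19.0% called higher lies close to the background. The widest was again Pcdhb2, with 92 UMIs (12.3 CPM) in Mettl14-cKO cells and 20 UMIs (2.72 CPM) in control cells, a ratio of 4.50 (2.75 to 7.71). Pcdhb3 (2.52, 1.32 to 5.05), Pcdhb22 (2.33) and Pcdhb14 (1.74) were the others. Pcdhb8 had a ratio of 2.35 with overlapping levels. The lowest were Pcdhb18 (0.836), Pcdhb20 (0.872) and Pcdhb10 (0.892).

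In amacrine cells, 3 of 21 were called higher and 1 lower, against 13.2% and 8.76% of all genes. The genes called higher were Pcdhb3 (55 UMIs in Mettl14-cKO and 14 UMIs in control cells; ratio 3.29, 1.80 to 6.40), Pcdhb2 (85 UMIs in Mettl14-cKO and 23 UMIs in control cells; 3.09, 1.93 to 5.14) and Pcdhb14 (1.89). Pcdhb5 also stood at 1.89, without a call. The lowest were Pcdhb6 (0.538), Pcdhb13 (0.604) and Pcdhb9, the gene called lower, at 15.7 CPM in Mettl14-cKO cells and 23.1 CPM in control cells (0.679, 0.516 to 0.893). The call of Pcdhb9 was lost under 4 alternatives, among them a 1.5-fold limit and the removal of barcodes found in both libraries.

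In ganglion cells, 1 of 7 was called higher and 0 lower, against 4.52% and 2.94% of all genes. Pcdhb14 had 38 UMIs in Mettl14-cKO cells and 4 UMIs in control cells (ratio 5.24, 1.89 to 20.2), followed by Pcdhb7 (1.29) and Pcdhb22 (1.27). The lowest were Pcdhb21 (0.398), Pcdhb17 (0.690) and Pcdhb20 (0.896). With 1 more marker required for the gate, 0 genes were called higher and 1 lower.

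In Müller glia, 2 of 12 were called higher and 0 lower, against 15.4% and 11.2% of all genes. Pcdhb5 had 29 UMIs in Mettl14-cKO cells and 3 UMIs in control cells, a ratio of 6.98 with a wide interval of 2.16 to 35.8. Pcdhb22 followed at 2.55 (1.42 to 4.87) and Pcdhb18 at 2.33 without a call. The lowest were Pcdhb11 (0.516), Pcdhb17 (0.884) and Pcdhb20 (0.913). With the stricter gate 1 gene was called higher.

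**Figure D3:**
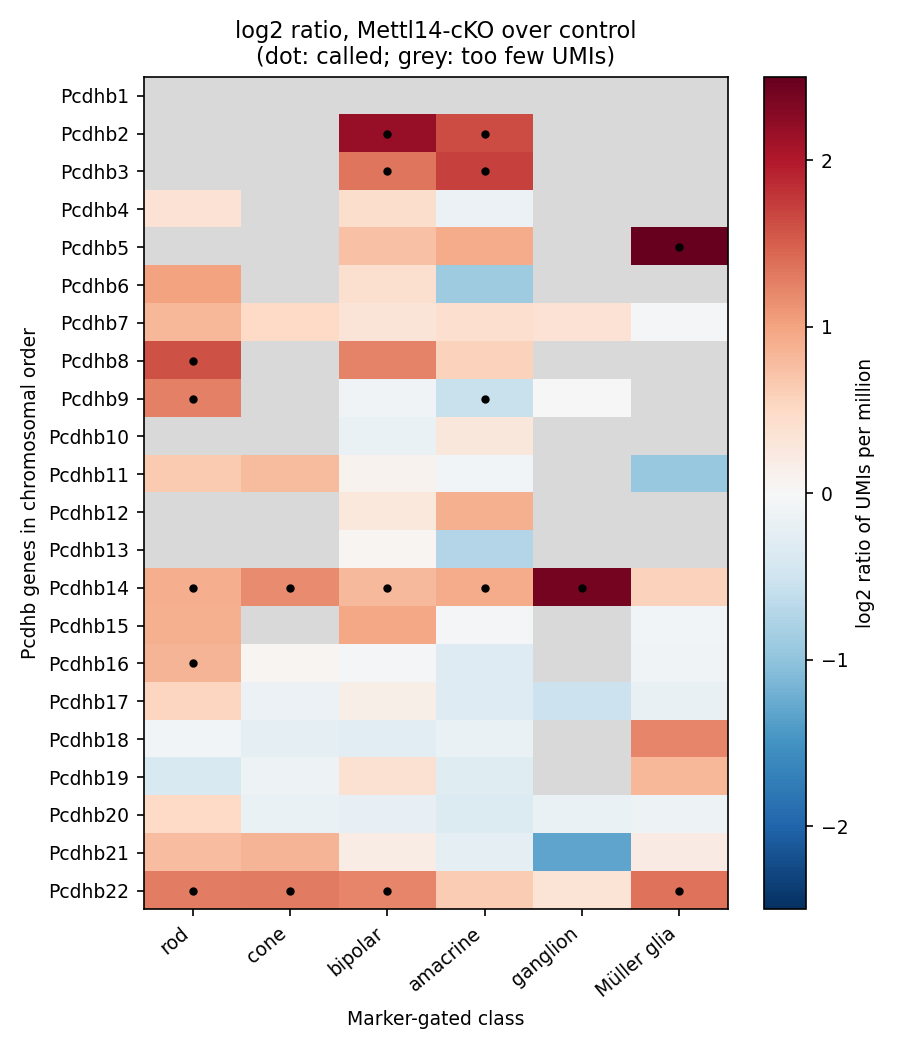
log2 ratio of CPM, Mettl14-cKO over control, for each Pcdhb gene (rows, in chromosomal order) in 6 classes (columns); black dots mark called genes, grey cells have under 30 UMIs over both libraries, and ratios beyond the ends of the colour scale take its end colour. Pcdhb14 and Pcdhb22 are above 0 in all 6 classes, and Pcdhb2 and Pcdhb3 in both classes where they could be tested.

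Across these 6 classes, Pcdhb14 was above 1 in 6 and called higher in 5, with log2 ratios of 0.58 to 2.39. Pcdhb22 was above 1 in 6 and called higher in 4 (0.34 to 1.35). Pcdhb2 and Pcdhb3 had enough UMIs in 2 classes, bipolar and amacrine cells, and were called higher in both. Pcdhb5 and Pcdhb8 were above 1 in all 3 classes where they were tested. At the other end, Pcdhb20 was below 1 in 5 of 6 classes, Pcdhb18 in 4 of 5 and Pcdhb17 in 4 of 6, and none of these was called. Pcdhb9 was called higher in rods and lower in amacrine cells. Other single-exon genes were called higher in 37.8% of those tested in rods, 33.2% in cones, 42.9% in bipolar cells, 33.5% in amacrine cells, 12.5% in ganglion cells and 38.1% in Müller glia. The share of beta genes called higher was 33.3% in rods, 20.0% in cones, 19.0% in bipolar cells, 14.3% in both amacrine and ganglion cells and 16.7% in Müller glia. The UMI counts of these groups were not matched within the classes either.

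To see in how many cells a beta gene was found, every cell was thinned to 1500 UMIs and shallower cells were left out (1628 in the Mettl14-cKO library and 1464 in the control library). At this depth a beta UMI was present in 22.6% of Mettl14-cKO cells (21.9 to 23.4%) and 17.2% of control cells (16.4 to 17.9%). Without thinning the shares were 42.5% in Mettl14-cKO cells and 35.8% in control cells. Starburst amacrine cells led, with a beta UMI in 38 of 76 Mettl14-cKO cells (38.3 to 61.7%) and in 24 of 58 control cells (41.4%), and amacrine cells followed with 32.3% in Mettl14-cKO cells and 29.4% in control cells.

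In bipolar cells 29.9% of Mettl14-cKO cells (27.8 to 32.0%) and 21.8% of control cells (19.9 to 23.8%) had a beta UMI, and the intervals do not overlap. They also do not overlap in rods, with 12.4% of Mettl14-cKO cells (11.1 to 13.8%) and 9.09% of control cells (8.10 to 10.1%). Ganglion cells, at 21.4% in Mettl14-cKO cells and 21.1% in control cells, had widely overlapping intervals. Müller glia reached 17.8% in Mettl14-cKO cells and 14.9% in control cells. In microglia, where these genes should be silent, 3 of 65 Mettl14-cKO cells (4.62%, 0.962 to 12.9%) and 1 of 24 control cells (4.17%, 0.105 to 21.1%) had a beta UMI after thinning; their median depth before thinning was 7027 UMIs in Mettl14-cKO cells and 5357 UMIs in control cells, against 2170 UMIs in Mettl14-cKO rods and 2039 UMIs in control rods. The interval of the microglial share, which rests on few cells, overlaps that of the rod share in both libraries. The intervals of the summed levels did not overlap. In Mettl14-cKO cells they were 4.46 to 26.5 CPM in microglia and 90.3 to 103 CPM in rods. In control cells they were 0.140 to 30.9 CPM in microglia and 57.8 to 66.4 CPM in rods. Scrublet marked 23.0% of Mettl14-cKO microglia and 0% of control microglia.

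**Figure D4:**
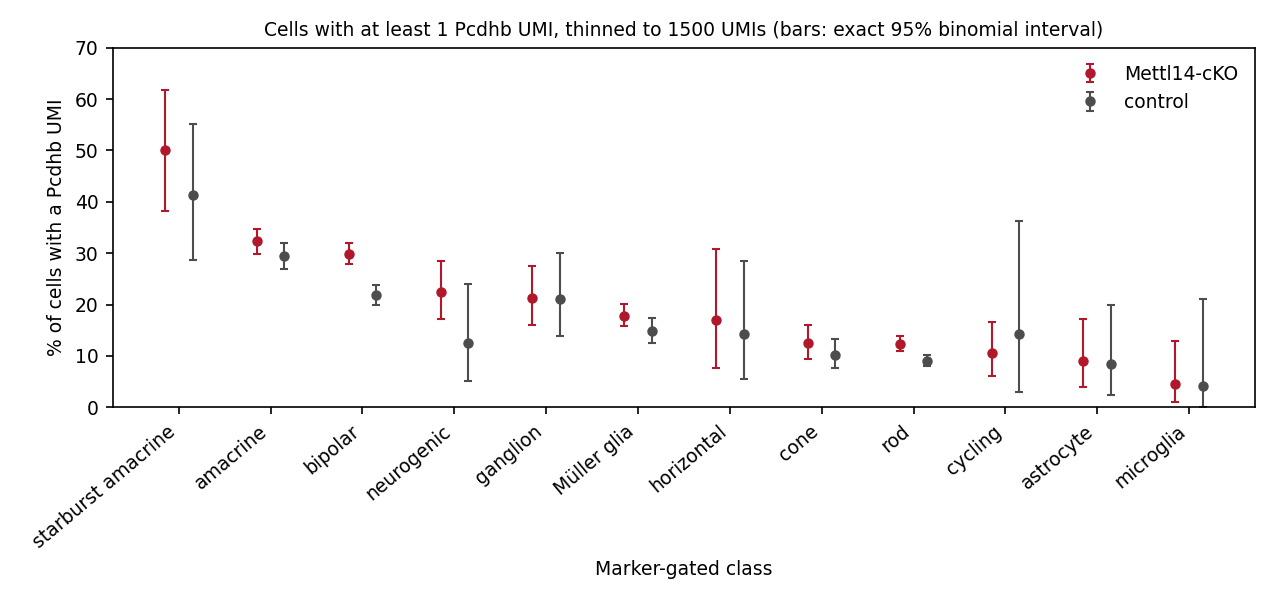
Share of cells with at least 1 Pcdhb UMI after thinning each cell to 1500 UMIs (y axis, percent) by class (x axis) for the Mettl14-cKO library (red) and the control library (grey); bars are exact 95% binomial intervals. Starburst amacrine cells are highest (38 of 76 Mettl14-cKO cells and 24 of 58 control cells), and microglia lowest (4.62% of Mettl14-cKO cells and 4.17% of control cells).

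How often the beta UMIs of 1 cell come from the same gene describes how the genes are spread over cells. Of all pairs of beta UMIs within a cell, the share from the same gene was compared with the sum of squared gene proportions of that class and library. In amacrine cells 16.8% of pairs were of 1 gene in the Mettl14-cKO library and 16.6% in the control library, against 6.23% from the proportions in the Mettl14-cKO library (2.69-fold) and 6.76% in the control library (2.46-fold). In bipolar cells the share was 11.7% in the Mettl14-cKO library (1.77-fold over the proportions) and 16.1% in the control library (2.28-fold).

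In ganglion cells the share was 31.3% of pairs in Mettl14-cKO cells (4.20-fold) and 22.3% in control cells (3.48-fold), from 82 Mettl14-cKO cells and 45 control cells with 2 or more beta UMIs. Rods had 9.17% in Mettl14-cKO cells, against 7.34% from the proportions, and 16.8% in control cells (2.10-fold), cones 10.0% in Mettl14-cKO cells (1.18-fold) and 13.1% in control cells (1.34-fold), and Müller glia 11.5% in Mettl14-cKO cells, against 7.63% from the proportions, and 24.0% in control cells (2.87-fold). Pairs within a cell are not independent. In cells with exactly 2 beta UMIs, where each cell counts once, the same-gene share in bipolar cells was 13.6% of 258 Mettl14-cKO cells (9.63 to 18.4%) and 17.7% of 232 control cells (13.0 to 23.2%), with overlapping intervals. In amacrine cells it was 17.0% of 270 Mettl14-cKO cells (12.7 to 22.1%) and 18.6% of 183 control cells (13.2 to 25.0%), again overlapping. The order of the libraries turned round in Müller glia, with 17 of 100 Mettl14-cKO cells (10.2 to 25.8%) and 7 of 47 control cells (14.9%, 6.20 to 28.3%), also overlapping. In ganglion cells it was 13 of 40 Mettl14-cKO cells (32.5%, 18.6 to 49.1%) and 1 of 13 control cells (7.69%, 0.195 to 36.0%), so the control value rests on few cells. Cells that passed several gates were left out here, and no other cell held UMIs of more than 8 beta genes in the Mettl14-cKO library or 7 in the control library.

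The alpha genes showed a larger ratio than the beta genes, within the limit that their counts measure an unknown part of their transcripts. They gave 1685 UMIs in the Mettl14-cKO library and 1014 in the control library, or 28.8 CPM in Mettl14-cKO cells and 18.6 CPM in control cells, a ratio of 1.55 (1.43 to 1.68), and 1.42 when weighted to the control mix of classes. Of the 14 alpha genes 7 were called higher and 0 lower, against 19.5% higher and 18.6% lower of all genes; those called were all among the 12 variable genes, whose summed ratio was 1.70 (1.57 to 1.86). They were the Pcdha11 feature ENSMUSG00000007440 (134 UMIs in Mettl14-cKO and 45 UMIs in control cells; 2.78, 1.97 to 3.98), Pcdha8 (2.50), Pcdha3 (2.22), Pcdha5 (2.11), Pcdha2 (1.94), Pcdha4 (1.85) and a second feature of the name Pcdha11, ENSMUSG00000102206 (1.68). Pcdha12 (1.02) and Pcdha7 (1.06) were near 1. Variable alpha genes stood higher in rods, at 12.2 CPM in Mettl14-cKO cells and 3.43 CPM in control cells (3.55, 2.48 to 5.15), and in bipolar cells, at 45.8 CPM in Mettl14-cKO cells and 22.9 CPM in control cells (2.003, 1.66 to 2.42). The ratio was 1.88 (1.14 to 3.12) in cones and 3.40 (1.48 to 9.12, from 33 UMIs in Mettl14-cKO and 7 UMIs in control cells) in Müller glia. In amacrine cells the ratio was 1.15 (0.967 to 1.38) and in ganglion cells 0.895 (0.658 to 1.23). Scrublet marked 9.13% of Mettl14-cKO and 3.12% of control rods, and 4.59% of Mettl14-cKO and 1.03% of control bipolar cells. These alpha ratios by class were not recomputed without the marked cells.

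The gamma genes differed least as a group. They gave 5885 UMIs in the Mettl14-cKO library and 4946 in the control library, or 101 CPM in Mettl14-cKO cells and 90.7 CPM in control cells, a ratio of 1.11 (1.07 to 1.15). Weighted to the control mix of classes, the summed ratio was 1.08. The classes differed in direction. The summed gamma ratio was 1.21 (1.09 to 1.34) in rods, 1.16 (1.01 to 1.34) in cones and 1.22 (1.05 to 1.42) in Müller glia. It was 0.909 (0.828 to 0.996) in bipolar cells, 0.917 (0.828 to 1.02) in amacrine cells and 0.771 (0.586 to 1.02) in ganglion cells. Intervals also included 1 in starburst amacrine cells (1.26) and neurogenic cells (1.04). The difference between classes was not tested. Of 21 gamma genes 5 were called higher and 2 lower, and the 23.8% called higher is near the 19.5% of all genes. The 12 gamma A genes had a summed ratio of 1.09 (1.04 to 1.15) and the 6 gamma B genes one of 1.35 (1.252 to 1.46). Pcdhgb5 led, at 8.39 CPM in Mettl14-cKO cells and 4.42 CPM in control cells (1.90, 1.62 to 2.23), and its ratio was 3.25 (2.20 to 4.92) in bipolar cells and 2.32 (1.37 to 4.11) in Müller glia. Pcdhgb4 (1.53), Pcdhga2 (1.49), Pcdhgc5 (1.46) and Pcdhga12 (1.26) were the others called higher. Pcdhga4 was called lower, with 44 UMIs in the Mettl14-cKO library and 72 in the control library (0.570, 0.382 to 0.840). Pcdhga5, not called over all cells (0.851), was called lower in amacrine cells, at 10.3 CPM in Mettl14-cKO cells and 18.2 CPM in control cells (0.567, 0.407 to 0.784).

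**Figure D5:**
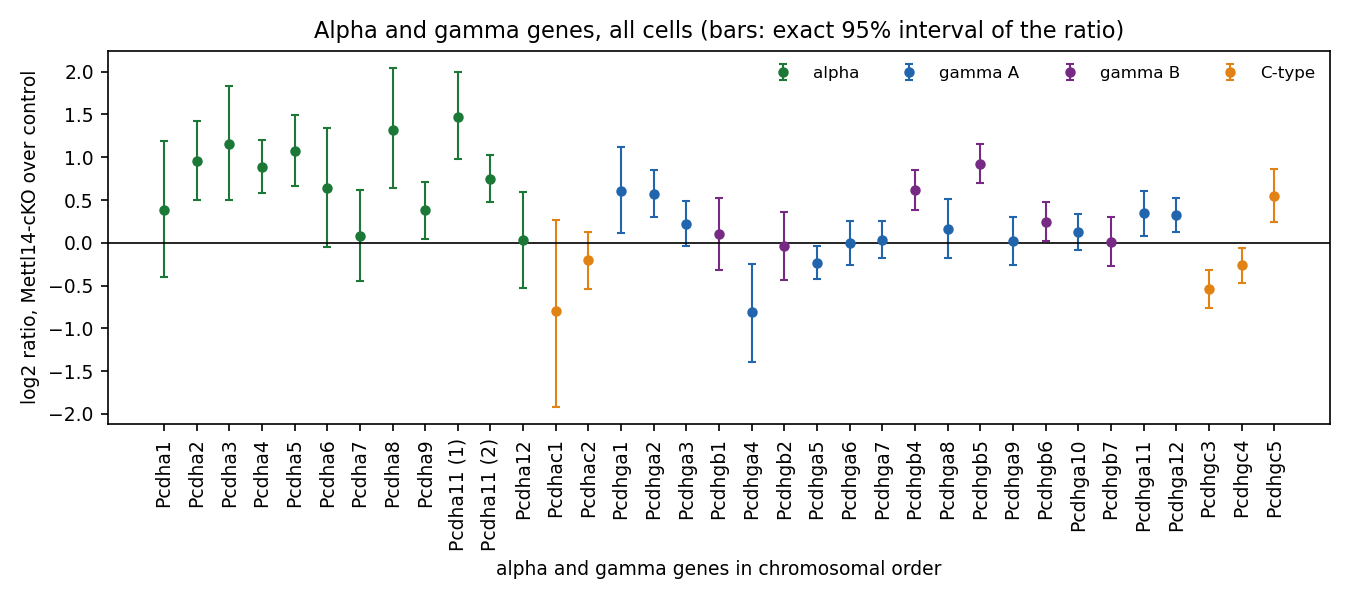
log2 ratio of CPM, Mettl14-cKO over control, for each alpha and gamma gene (x axis, in chromosomal order) over all cells; bars are exact 95% intervals of the ratio, and colours mark the alpha, gamma A, gamma B and C-type groups. Pcdha11 (1) is ENSMUSG00000007440 and Pcdha11 (2) ENSMUSG00000102206. All 12 variable alpha genes lie above 0, and 4 of the 5 C-type genes lie below.

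The C-type genes, which many neurons express constitutively rather than at random, included 1 gene called higher and 1 lower of 5, close to the 19.5% and 18.6% of all genes. Together they gave 1070 UMIs in the Mettl14-cKO library and 1154 in the control library, or 18.3 CPM in Mettl14-cKO cells and 21.2 CPM in control cells, a ratio of 0.864 (0.795 to 0.940). Pcdhgc3, whose product binds Axin1, stood at 4.99 CPM in Mettl14-cKO cells and 7.24 CPM in control cells (0.689, 0.590 to 0.804) and was called lower. Pcdhgc4, the isoform needed for neuronal survival in mice, stood at 6.60 CPM in Mettl14-cKO cells and 7.92 CPM in control cells (0.833), which is within the limit of the call. Weighted to the control mix of classes, the ratio of Pcdhgc4 was 0.769, past that limit. Pcdhgc5 was higher, at 3.95 CPM in Mettl14-cKO cells and 2.70 CPM in control cells (1.46, 1.19 to 1.81). Pcdhac2 (0.868) and Pcdhac1 (0.577, from 13 UMIs in Mettl14-cKO and 21 UMIs in control cells) were not called. Weighted to the control mix, ratios were 0.654 for Pcdhgc3, 1.43 for Pcdhgc5, 0.782 for Pcdhac2 and 0.436 for Pcdhac1. The weighted ratios have no interval, so no call was made from them.

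The C-type difference was widest in bipolar cells. There the sum stood at 18.1 CPM in Mettl14-cKO cells and 38.8 CPM in control cells, a ratio of 0.467 (0.378 to 0.574). Pcdhgc3 had 34 UMIs in Mettl14-cKO and 92 UMIs in control bipolar cells (0.361, 0.236 to 0.541), and Pcdhgc4 had 56 UMIs in Mettl14-cKO and 127 UMIs in control bipolar cells (0.431, 0.309 to 0.595). Both were called lower, while the beta sum in the same cells was higher. Of the bipolar cells, 740 of 1940 in the Mettl14-cKO library and 253 of 1754 in the control library had only the 3 markers needed. The part of this in the C-type ratios was not tested, and these ratios were not recomputed with a stricter gate. In amacrine cells Pcdhgc3 was also called lower, with 26 UMIs in Mettl14-cKO and 63 UMIs in control cells (0.345, 0.210 to 0.553), and Pcdhgc4 had a ratio of 0.789 without a call. In rods (1.09), cones (1.04), Müller glia (1.35) and ganglion cells (1.32) the intervals of the C-type ratio included 1.

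Genes that act on or beside the clusters were also counted. Of 17 genes of promoter choice, 1 was called higher and 2 lower, and 13 had a ratio below 1, with a median log2 ratio of -0.16 against -0.02 over all genes tested. Setdb1, a histone H3K9 methyltransferase that shields the clusters, stood at 62.7 CPM in Mettl14-cKO cells and 41.2 CPM in control cells (1.52). The cohesin subunits Rad21 (61.0 CPM in Mettl14-cKO cells and 88.7 CPM in control cells; 0.688) and Stag2 (0.734) were called lower. The 11.8% of the list called lower is under the 18.6% of all genes. Other cohesin subunits and the loader Nipbl had ratios below 1 without a call. The ratios were 0.833 for Smc3, 0.835 for Stag1, 0.847 for Smc1a and 0.872 for Nipbl, with intervals that did not include 1. These genes have many UMIs and so narrow counting intervals, and they were named after their values were seen. The shares of all genes with a ratio below 1, or with such an interval, were not counted. Ctcf stood at 182 CPM in Mettl14-cKO cells and 175 CPM in control cells (1.04). Of 14 partners and processing genes, 3 were higher and 1 lower, with a median of 0.04; Ptk2b, a kinase bound by alpha and gamma proteins, had the highest ratio (3.03, from 26 UMIs in Mettl14-cKO and 8 UMIs in control cells), and Abi1, of the actin-regulating WAVE complex, the lowest (0.767).

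Of 12 protocadherins outside the clusters, 2 were higher and 2 lower (median 0.13), with Pcdh18 highest (1.33) and Pcdh15, an adhesion molecule of photoreceptors and hair cells, lowest (31.9 CPM in Mettl14-cKO cells and 92.3 CPM in control cells; 0.346). Of 13 other self-recognition molecules and large cadherins, 4 were higher and 3 lower (median 0.01), with the atypical cadherin Fat1 highest (1.71) and Sdk1, a synaptic adhesion molecule of specific retinal layers, lowest (0.583). Of 15 genes that flank or lie between the clusters, 14 had enough UMIs, 1 was higher and 2 lower (median 0.02), with Wdr55 highest (1.80) and Tmco6 lowest (0.725). These lists were called higher in 5.88 to 30.8% of the genes tested, on either side of the 19.5% of all genes. Ratios of the list genes, that of Pcdh15 included, were not weighted to the control mix of classes. They therefore do not separate the shares of the classes from the levels within them.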

How the data were processed

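The authors deposited UMI counts per gene and barcode for 32285 features, as whole numbers per the file headers. Cell Ranger 6.1.1 and mm10 are named per the submitters' processing notes. Intronic counting is not given in the sources used here. Barcodes with at least 1000 UMIs were kept, with no doublet removal in the main values; Scrublet (scanpy 1.11.5; 0.8% per 1000 barcodes) marked 11.98% of Mettl14-cKO and 6.92% of control cells, which were removed in an alternative. Cells were gated into 15 classes from 137 markers, by the number of distinct markers detected (2 to 7 needed); cells passing several gates were kept apart, and the numbers needed were set after marker counts were seen. Within each class the UMI counts were summed per library and scaled to 1000000. Levels have exact Poisson, ratios exact conditional and shares Clopper-Pearson 95% intervals (scipy 1.17.1). No ratio was formed under 30 UMIs.

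The members and gene lists were chosen with earlier results of these data known. Beta, alpha and gamma genes with at least 30 UMIs could be named, per class the 3 highest and 3 lowest beta ratios, and from each other list the highest and lowest member; other called genes of a class, Ctcf, Stag1, Stag2, Smc1a, Smc3 and Nipbl were named after their values were seen. Gene models were GENCODE M21. The call rule was tested on simulated counts, drawn as independent Poisson counts. They hold no variation between cells, animals or preparations, so this check does not cover such variation. Alternatives were other cell filters, scalings, limits, gates and thinning depths. Sequences are not printed here.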

Additional observations from a re-analysis of the deposited data

Results flagged for a closer look

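The summed beta ratio of ganglion cells, 0.829 (0.691 to 0.996), ran opposite to those of the other classes with at least 50 cells per library, with 139 CPM in Mettl14-cKO cells and 168 CPM in control cells. This difference between classes was not tested, and the upper bound passed 1 after the Scrublet filter. The interval also treats UMIs as independent, while 302 UMIs came from 131 Mettl14-cKO cells and 201 UMIs from 73 control cells. Cells outside the named classes also carried a higher beta level in the Mettl14-cKO library: the ratio was 1.21 (1.09 to 1.35) in cells with no gate, at 227 CPM in Mettl14-cKO cells and 187 CPM in control cells, and 1.27 (1.20 to 1.36) in cells with several gates, at 161 CPM in Mettl14-cKO cells and 126 CPM in control cells. Scrublet marked 50.3% of the Mettl14-cKO cells and 36.1% of the control cells with several gates. Barcodes under 1000 UMIs, 1817 in the Mettl14-cKO library and 1861 in the control library, gave a ratio of 1.13 (0.968 to 1.31).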

How the results depend on the processing

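No paired analysis was possible because each genotype has 1 library. Of the results recomputed under alternatives, 190 values stayed within the counting interval or within 1.5 times of the count, and 18 moved. Calls higher and lower were tallied apart. The ganglion calls, which turned from 1 higher to 1 lower with a stricter gate, therefore count only as moved. The 190 include many counts of 0 genes called lower that stayed at 0. They also include a change from 5 to 7 beta genes called higher in rods with 1 more marker per gate. The tally is therefore a coarse measure of stability. The summed beta ratio over all cells lay between 1.26 (control mix of classes) and 1.36, and the alpha ratio moved to 1.42 with the control mix. Beta genes called higher over all cells were 4 at a 2-fold limit, 7 at 1.5-fold and 9 or 10 under the other settings. In rods 3 were called higher with at least 2000 UMIs per cell. In amacrine cells 0 were called lower at 1.5-fold, with at least 2000 UMIs, after the Scrublet filter and without barcodes shared by both libraries. With 1 more marker per gate, ganglion cells had 0 higher and 1 lower, and Müller glia 1 higher. The share of cells with a beta UMI was 32.3% in Mettl14-cKO and 27.1% in control cells at 2500 UMIs and 42.5% and 35.8% without thinning, and 21.5% in Mettl14-cKO cells after the Scrublet filter. Thinning to 1500 UMIs moved the same-gene pairs of bipolar cells to 2.12-fold in Mettl14-cKO and 2.80-fold in control cells. Thinning only removes UMIs, so a cell has at least as many beta UMIs before it as after it. The cells left out also change with the depth. The cause of the other moves was not tested. Leaving out shared barcodes, and the control mix for alpha and gamma genes, were chosen after seeing the data. Setting the median ratio of all genes to 1 shifted log2 ratios by less than 0.1 in every class. Levels per gene rest on few UMIs within a class, and variation between animals is not covered. Intervals of levels and ratios also do not cover variation between cells.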
